A study of Mus musculus with 9 samples.

Results

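A set of 10 genes of the IL-17 pathway was followed in the skin of mice that lack *Supt6* in the epidermis: 3 ligand genes (*Il17c*, *Il17f* and *Il23a*), 3 receptor genes (*Il17ra*, *Il17rc* and *Il17re*), 2 genes that carry the signal onward (*Traf3ip2* and *Nfkbiz*) and 2 genes that limit it (*Zc3h12a* and *Tnip1*). They were chosen by name, as the rows whose gene identifier maps to these 10 symbols, and all 10 were found among the 17943 genes of the count table. Bulk RNA-Seq libraries from 5 control and 4 *Supt6*-KO mice were compared. The controls were Supt6 fl/fl mice given corn oil, and the *Supt6*-KO mice were K14-CreERT; Supt6 fl/fl mice given tamoxifen once daily for 5 days. Every mouse therefore carried the floxed alleles, and the groups differed both in the Cre transgene and in tamoxifen against oil. Injections fell in the first telogen and skin was taken on day 10 after the last of them; the exact age of the mice was not given in the sources used here. The sample labels call the controls wild-type and the tissue ear, whereas the study's methods, from which genotypes and treatments are taken here, name dorsal skin. The K14 promoter drives Cre in basal keratinocytes, while whole skin was sequenced, so counts from the dermis and from immune cells, which K14-CreERT does not target, are included. Markers of cartilage and skeletal muscle were counted as well, with far lower sums in the *Supt6*-KO mice than in the controls, as given below. The libraries held 29627341 to 30491197 counts in the controls and 30597189 to 30967107 counts in the *Supt6*-KO mice. Controls 1 and 3 had 3 and 2 counts over 4 Y-linked genes, where the other 7 mice had between 5483 and 7345, so the group of controls contained mice of both sexes and the *Supt6*-KO group only one. Nothing states that the mice came from separate litters or cages, so p-values measure the spread between these animals.

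IL-17 cytokines act on epithelial cells through paired receptor chains. IL-17RA is the shared chain; it joins IL-17RC to bind IL-17A and IL-17F, and IL-17RE to bind IL-17C, a cytokine made by epithelial cells themselves. IL-23, whose specific subunit is encoded by *Il23a*, sustains the lymphocytes that make IL-17A and IL-17F. Inside the cell the adaptor Act1, encoded by *Traf3ip2*, docks on the receptor and recruits TRAF proteins, and IκBζ, encoded by *Nfkbiz*, works in the nucleus with NF-κB on a group of inflammatory genes. Regnase-1, the RNase encoded by *Zc3h12a*, degrades inflammatory transcripts, that of *Nfkbiz* among them. ABIN-1, encoded by *Tnip1*, binds ubiquitin chains and holds NF-κB signaling down together with A20. In the skin this pathway is best known for its part in psoriasis.

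*Supt6* itself checks the labels. It was counted 2786, 2068, 2297, 3370 and 3798 times in the controls and 684, 503, 478 and 791 times in the *Supt6*-KO mice. All *Supt6*-KO mice were below all controls. After TMM normalization, which scales the libraries on the assumption that most genes are level between them, this was 76.5 ± 17.2 CPM (counts scaled to a common library size; SD, n = 5) against 25.8 ± 3.31 CPM (SD, n = 4), and the log2 fold change was -1.57 (SE 0.18, edgeR adjusted p = 1.3e-05). It came to -2.26 with library totals, to -0.82 with a correction for the longest transcript and to -0.74 with one for the length that counts per TPM imply, all past the threshold.

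Of the 10 members, 9 had enough counts to be tested, since *Il17c* held only 7 counts over the 9 mice. At an adjusted p under 0.05 in edgeR's quasi-likelihood test, 3 members were higher (*Il17f*, *Il23a* and *Nfkbiz*), 4 were lower (*Il17ra*, *Il17re*, *Traf3ip2* and *Tnip1*) and 2 did not pass (*Il17rc* and *Zc3h12a*). The background was high: 34.1% of the 16426 genes tested were called higher and 36.8% lower, so the members were called about as often as genes in general. TMM assumes that most genes are level, which these shares do not bear out. Past a 2-fold change as well, the same 3 members were higher (20.9% of all genes) and 0 were lower (24.9%). Scaling by library totals alone gave 3 members higher and 5 lower, where 16.9% of all genes were higher and 54.6% lower; it shifted the median of all log2 fold changes from -0.072 to -0.759, and the changes of the members are best read against it. A correction for the longest transcript gave 3 members higher and 3 lower (34.5% and 33.1% of all genes), and one for the length that counts per TPM imply gave 4 and 3 (34.8% and 32.9%). The 3 members called higher were also above all controls in every *Supt6*-KO mouse, as were 28.9% of all genes. *Il17ra*, *Traf3ip2* and *Tnip1* were below all controls in every *Supt6*-KO mouse, as were 31.8% of all genes. For each of these 6 members a two-sided exact permutation test gave p = 0.0159, the smallest value that 5 mice against 4 allow.

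**Figure D1:**
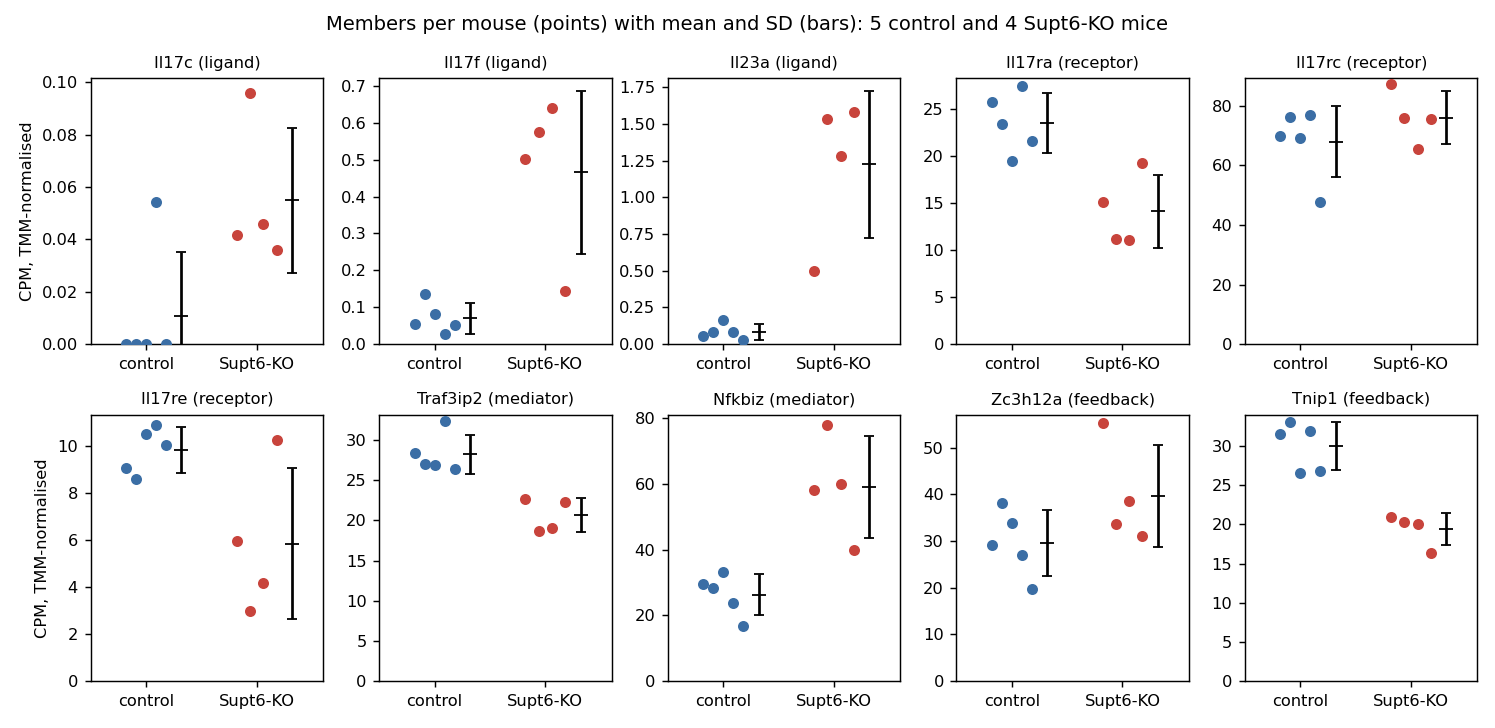
Each panel plots a member in TMM-normalised CPM on a linear axis from 0, with a point for each of the 5 control mice (blue) and 4 *Supt6*-KO mice (red), and the mean with its SD as a bar. *Il17f*, *Il23a* and *Nfkbiz* lie above the controls in all 4 *Supt6*-KO mice and *Il17ra*, *Traf3ip2* and *Tnip1* below them, while the groups overlap for *Il17c*, *Il17rc*, *Il17re* and *Zc3h12a*.

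Of the ligand genes, *Il23a* and *Il17f* rose, from levels near the limit of counting. *Il23a* (chr10:128296139-128298752, reverse strand, GRCm38) was counted 2, 3, 6, 3 and 1 times in the controls and 12, 32, 28 and 44 times in the *Supt6*-KO mice. *Supt6*-KO mouse 1 was the lowest of its group and still held more counts than any control. The change was from a control mean of 0.0817 ± 0.0526 CPM (SD, n = 5) to a knockout mean of 1.22 ± 0.50 CPM (SD, n = 4), or by a log2 fold change of 3.86 (SE 0.48, 95% interval 2.81 to 4.90, edgeR adjusted p = 2.6e-05). As a ratio of summed counts this was 15.3-fold, with a 95% interval of 8.87 to 28.1 that covers counting error only. The log2 fold change lay between 3.18 and 3.44 with library totals and with both corrections for gene length, and remained past the threshold there.

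*Il17f* (chr1:20777146-20790617, reverse strand), the partner of *Il17a* in the IL-17A/F heterodimer, was counted 2, 5, 3, 1 and 2 times in the controls and 12, 12, 14 and 4 times in the *Supt6*-KO mice. *Supt6*-KO mouse 4 had fewer raw counts than control 2, and lay above it only after normalization, at 0.144 against 0.137 CPM. The log2 fold change was 2.64 (SE 0.54, 95% interval 1.47 to 3.82, edgeR adjusted p = 0.00094). The ratio of summed counts was 6.37 with a counting interval of 3.36 to 12.9. It came to 1.93 on the log2 scale with library totals and to 1.79 with a correction for the length of the longest transcript, both still past the threshold. *Il17c* (chr8:122422020-122423639, forward strand) was counted 0, 0, 0, 2 and 0 times in the controls and 1, 2, 1 and 1 times in the *Supt6*-KO mice. No library exceeded the floor of 3 counts, so no fold is given and a change of *Il17c* was not detectable at this depth.

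The 250 bases before the start of *Il17f* are shown because it is the member with a called rise whose promoter was among the RefSeq GRCm38.p6 promoters used here, which matched 6 of the 10 members. Capitals mark the letters TATAAA, searched on both strands. They stand close to the start, and 12.4% of 32851 promoters of the same length hold them somewhere. The sequence runs 5′ to 3′ on the reverse strand of chr1:20784271-20784520, inside the annotated span of the gene.
Il17f: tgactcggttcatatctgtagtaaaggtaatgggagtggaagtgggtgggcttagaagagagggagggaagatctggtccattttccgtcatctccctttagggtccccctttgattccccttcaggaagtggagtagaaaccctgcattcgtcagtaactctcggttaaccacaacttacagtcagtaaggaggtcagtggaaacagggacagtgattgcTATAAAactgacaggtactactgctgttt

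Of the 3 receptor chains, *Il17ra* and *Il17re* were called lower and *Il17rc* did not pass, and the first 2 calls were fragile in different ways. *Il17ra* (chr6:120463247-120487559, forward strand), the chain that all the IL-17 receptors of this group share, had 25.7, 23.4, 19.4, 27.4 and 21.6 CPM in the controls and 15.1, 11.2, 11.02 and 19.2 CPM in the *Supt6*-KO mice. *Supt6*-KO mouse 4 came within reach of control 3, the lowest control, and the other 3 were well below it. The means were 23.5 ± 3.16 CPM (SD, n = 5) and 14.1 ± 3.88 CPM (SD, n = 4), and the log2 fold change came to -0.73 (SE 0.19, 95% interval -1.14 to -0.32, edgeR adjusted p = 0.0042).

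The call for *Il17ra* was lost when a trend with transcript length was removed, under either measure of length. Long genes were lower than short ones in the *Supt6*-KO libraries, by 1.9 on the log2 scale for each 10-fold of transcript length over 13478 genes, and the longest transcript of *Il17ra*, at 7752 bases, is longer than that of 93.7% of them. After removal of this trend the log2 fold change was 0.11 (edgeR adjusted p = 0.59). When length was taken instead from the authors' own files, as counts per TPM, *Il17ra* came out at 4348 bases and its log2 fold change at -0.32 (edgeR adjusted p = 0.10).

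*Il17rc*, the chain for IL-17A and IL-17F, did not pass the test. It had 69.7, 76.1, 69.2, 76.9 and 47.8 CPM in the controls and 87.1, 76.0, 65.5 and 75.4 CPM in the *Supt6*-KO mice. The groups overlapped, and control 5 was the lowest of all. The means of 67.9 ± 11.8 CPM (SD, n = 5) and 76.0 ± 8.86 CPM (SD, n = 4) gave a log2 fold change of 0.16 (SE 0.15, 95% interval -0.17 to 0.49, edgeR adjusted p = 0.35). With library totals it was -0.52 (edgeR adjusted p = 0.015), less negative than the median of all genes under that scaling.

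*Il17re*, the chain for IL-17C, had 9.07, 8.60, 10.5, 10.9 and 10.1 CPM in the controls. The *Supt6*-KO mice had 5.98, 2.97, 4.16 and 10.3 CPM. Mouse 4 thus lay among the controls while the other 3 were below all of them. The log2 fold change was -0.74 (SE 0.30, 95% interval -1.40 to -0.09, edgeR adjusted p = 0.042). This call was lost in 8 of the 9 fits that left out 1 mouse, where the edgeR adjusted p reached 0.11. The log2 fold change lay between -0.79 and -0.54 in those 8 fits. It was also lost with the 2 controls without Y-linked counts left out (-0.74, edgeR adjusted p = 0.094). With *Supt6*-KO mouse 4 left out the log2 fold change came to -1.17 (edgeR adjusted p = 0.00045).

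*Il17re* and *Il17rc* are neighbours on the forward strand of chromosome 6, at chr6:113458484-113470758 and chr6:113471427-113483140, with 668 bases between them. Their promoters are shown for that reason, each as the 250 bases before a RefSeq start, at chr6:113458521-113458770 and chr6:113471205-113471454. The stretch of *Il17re* lies inside the annotated span of that gene, and that of *Il17rc* runs into the beginning of its span. Capitals mark a match to the NF-κB letters GGGNNTTTCC, here on the opposite strand, which 1.41% of 32851 promoters hold on either strand. *Il17re* had no match to GGGNNTTTCC, to TATAAA or to the AP-1 letters TGANTCA, the last of which 6.75% of promoters hold. The wider NF-κB consensus, searched by its name after the data were seen and held by 7.25% of promoters, was matched by *Tnip1* alone of the 6 members with a promoter and not by *Il17rc*. A missing match says only that these letters are not in the stretch.
Il17re: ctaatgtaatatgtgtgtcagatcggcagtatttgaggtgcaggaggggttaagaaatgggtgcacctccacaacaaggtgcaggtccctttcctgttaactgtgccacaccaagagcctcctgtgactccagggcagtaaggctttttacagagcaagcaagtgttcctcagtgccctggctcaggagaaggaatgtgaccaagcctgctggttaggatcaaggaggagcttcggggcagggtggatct
Il17rc: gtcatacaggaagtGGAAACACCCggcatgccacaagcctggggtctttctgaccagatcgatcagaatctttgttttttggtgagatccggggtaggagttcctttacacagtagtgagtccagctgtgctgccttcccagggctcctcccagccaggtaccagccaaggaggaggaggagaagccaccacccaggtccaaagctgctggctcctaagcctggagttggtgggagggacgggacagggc

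Among the genes that carry the signal onward, *Nfkbiz* rose and *Traf3ip2* fell. *Nfkbiz* (chr16:55811375-55838899, reverse strand) had 29.4, 28.4, 33.1, 23.6 and 16.8 CPM in the controls and 58.1, 77.9, 60.1 and 39.8 CPM in the *Supt6*-KO mice. The groups were apart, with *Supt6*-KO mouse 4 nearest to the controls. The means were 26.2 ± 6.29 CPM (SD, n = 5) and 59.0 ± 15.6 CPM (SD, n = 4), which is 2.25-fold higher, with a log2 fold change of 1.17 (SE 0.22, 95% interval 0.69 to 1.64, edgeR adjusted p = 0.00051). With library totals the log2 fold change was 0.45 (edgeR adjusted p = 0.045).

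*Traf3ip2* (chr10:39612934-39655307, forward strand), which encodes Act1, had 28.4, 27.0, 26.9, 32.4 and 26.4 CPM in the controls and 22.7, 18.7, 19.1 and 22.3 CPM in the *Supt6*-KO mice. No *Supt6*-KO mouse reached the lowest control. The fall was small, from a control mean of 28.2 ± 2.47 CPM (SD, n = 5) to a knockout mean of 20.7 ± 2.09 CPM (SD, n = 4), or by a log2 fold change of -0.45 (SE 0.12, 95% interval -0.71 to -0.19, edgeR adjusted p = 0.0049). In the GENCODE annotation, 293 bases of its exons lie opposite the antisense gene *E130307A14Rik*, which has no row in the count table. The strand setting of the counting was not given in the sources used here, so reads of the pair cannot be told apart.

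Of the genes that limit the signal, *Tnip1* fell and *Zc3h12a* did not pass the test. *Tnip1* (chr11:54910785-54962917, reverse strand) had 31.5, 33.1, 26.6, 31.9 and 26.8 CPM in the controls and 21.0, 20.3, 19.99 and 16.4 CPM in the *Supt6*-KO mice. The groups were apart and the spread within each was narrow. *Tnip1* fell from a control mean of 30 ± 3.04 CPM (SD, n = 5) to a knockout mean of 19.4 ± 2.05 CPM (SD, n = 4), or by a log2 fold change of -0.63 (SE 0.12, 95% interval -0.90 to -0.36, edgeR adjusted p = 0.00078).

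The promoter of *Tnip1* is shown because it holds the NF-κB consensus, in capitals, which here is matched at 3 overlapping positions. The 250 bases before the RefSeq start run 5′ to 3′ on the reverse strand of chr11:54962941-54963190.
Tnip1: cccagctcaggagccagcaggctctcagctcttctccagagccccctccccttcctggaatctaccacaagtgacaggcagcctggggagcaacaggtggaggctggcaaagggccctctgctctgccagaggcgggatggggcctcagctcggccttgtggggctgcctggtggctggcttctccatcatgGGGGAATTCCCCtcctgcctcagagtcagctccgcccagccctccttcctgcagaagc

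*Zc3h12a* (chr4:125118423-125127840, reverse strand) had 29.0, 38.1, 33.9, 27.0 and 19.7 CPM in the controls. In the *Supt6*-KO mice it had 55.2, 33.6, 38.6 and 30.97 CPM, with mouse 1 far above the other 3 and the rest within or just above the range of the controls. The log2 fold change of 0.42 did not pass the test (SE 0.21, 95% interval -0.04 to 0.88, edgeR adjusted p = 0.093). Its sign was negative with library totals, at -0.27 (edgeR adjusted p = 0.27). It passed with the correction that takes length from counts per TPM (0.53, edgeR adjusted p = 0.038), without *Supt6*-KO mouse 4 (0.52, edgeR adjusted p = 0.039) and without control 2 (0.53, edgeR adjusted p = 0.047).

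**Figure D2:**
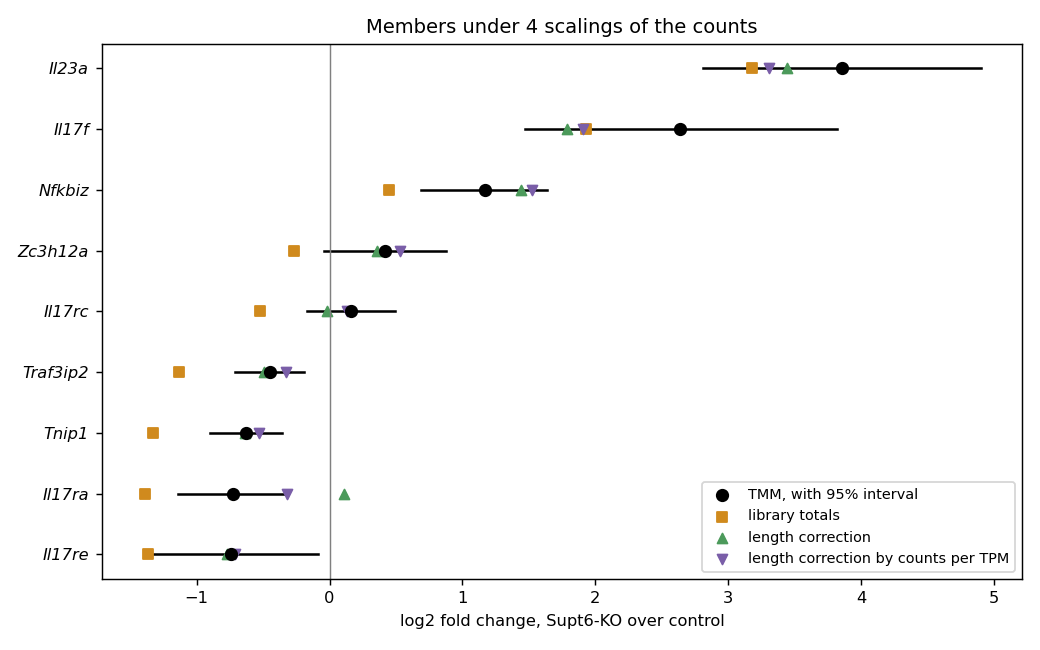
The log2 fold change of each tested member, *Supt6*-KO over control, is drawn on the horizontal axis with its 95% interval under TMM (black), beside the values with library totals, with the correction for the longest transcript and with the correction for counts per TPM. *Il17ra* crosses 0 with the longest transcript (0.11), *Zc3h12a* with library totals (-0.27) and *Il17rc* with both of these (-0.02 and -0.52), whereas *Il23a*, *Il17f*, *Nfkbiz*, *Traf3ip2*, *Tnip1* and *Il17re* keep their direction.

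A ratio of 2 members within a library does not depend on how libraries are scaled to each other, and 7 such ratios were tested. *Nfkbiz* to *Traf3ip2* was 1.03, 1.05, 1.23, 0.727 and 0.636 in the controls and 2.57, 4.17, 3.15 and 1.79 in the *Supt6*-KO mice. All 4 *Supt6*-KO mice were thus above all controls, and the geometric mean went from 0.908 to 2.79 (1.62 on the log2 scale; two-sided exact permutation p = 0.0159, 0.0278 after Benjamini-Hochberg adjustment over the 7 ratios). *Tnip1* to *Nfkbiz* was 1.07, 1.17, 0.805, 1.35 and 1.601 in the controls and 0.361, 0.260, 0.333 and 0.411 in the *Supt6*-KO mice. Its geometric mean fell from 1.17 to 0.337, again without overlap (-1.80 on the log2 scale; exact permutation adjusted p = 0.0278). *Zc3h12a* to *Nfkbiz* had 0.989, 1.34, 1.02, 1.15 and 1.17 in the controls and 0.9497, 0.431, 0.642 and 0.777 in the *Supt6*-KO mice. The highest *Supt6*-KO mouse lay close to the lowest control, and the geometric mean went from 1.13 to 0.673 (-0.75 on the log2 scale; exact permutation adjusted p = 0.0278). In each *Supt6*-KO mouse, then, transcripts of IκBζ stood higher relative to those of Act1, Regnase-1 and ABIN-1 than in any control. The ratios given so far all share *Nfkbiz*, so they are not separate results. *Nfkbiz* already lay above all controls, and *Traf3ip2* and *Tnip1* below them, so the ratios of these genes could not overlap between the groups. How often ratios of other gene pairs lack overlap was not computed.

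Among the receptors, *Il17rc* to *Il17ra* was 2.71, 3.25, 3.56, 2.81 and 2.21 in the controls and 5.75, 6.78, 5.93 and 3.92 in the *Supt6*-KO mice. The groups did not overlap (geometric means 2.87 and 5.49, 0.93 on the log2 scale; exact permutation adjusted p = 0.0278). The 2 genes differ in length, and the difference was 0.46 with length taken from counts per TPM and -0.13 with the longest transcript. *Il17re* to *Il17rc*, genes of similar length, went from a geometric mean of 0.146 to 0.0698 with *Supt6*-KO mouse 4 among the controls, and did not pass (-1.07 on the log2 scale; exact permutation adjusted p = 0.0667). *Il17re* to *Il17ra* had geometric means of 0.420 and 0.383 with overlapping groups (exact permutation adjusted p = 0.722). For *Il17c* to *Il17f*, which rests on a few counts, the adjusted exact permutation p was 0.730 and the sign changed with the pseudocount.

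To set the genes beside each other, levels were divided by the length of the longest GENCODE transcript (CPM per kilobase). In the controls *Il17rc* was the most abundant member, at 29.5 ± 5.13 CPM per kilobase (SD, n = 5). *Zc3h12a*, *Tnip1* and *Traf3ip2* followed at 10.7 ± 2.55, 10.1 ± 1.02 and 9.84 ± 0.861, which do not differ beyond their spread. *Nfkbiz* came next at 6.37 ± 1.53. *Il17re* at 3.34 ± 0.329 and *Il17ra* at 3.03 ± 0.408 lay within their spread of each other, and *Il17f*, *Il23a* and *Il17c* were far below, at 0.0597, 0.0474 and 0.0150 CPM per kilobase. In the *Supt6*-KO mice *Il17rc* stayed first at 33.0 ± 3.85 (SD, n = 4), and *Nfkbiz* at 14.3 ± 3.78 stood level with *Zc3h12a* at 14.4 ± 3.95. *Traf3ip2* at 7.21 ± 0.728 and *Tnip1* at 6.53 ± 0.691 were now lower than *Nfkbiz*, and *Il23a*, at 0.7103 ± 0.290, remained below *Il17ra* at 1.82 ± 0.501. In the TPM values that the authors deposited for the controls, *Il17ra* at 10.2 ± 1.92 TPM stood above *Il17re* at 6.72 ± 1.22 TPM (SD, n = 5), so the order of these 2 chains rests on the transcript length assigned to *Il17ra*.

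The rest of the pathway was read from lists of 75 other genes, of which 74 were tested, 36 were higher and 19 lower. Without the 25 IL-17 target genes, 13 of 49 were higher (26.5%) and 19 lower (38.8%), beside 34.1% and 36.8% of all genes, which are the shares to set beside the counts of each list. Among the other ligands, 2 of 4 tested rose and 1 fell, with a median log2 fold change of 1.95. *Il17a*, the best known product of type 17 lymphocytes, was counted 0, 4, 0, 0 and 1 times in the controls and 10, 2, 6 and 1 times in the *Supt6*-KO mice. Its groups overlapped, and its log2 fold change of 2.75 carried a wide error (SE 0.97, edgeR adjusted p = 0.024). The call was lost without *Supt6*-KO mouse 1 (2.13, edgeR adjusted p = 0.11), without *Supt6*-KO mouse 3 (2.58, edgeR adjusted p = 0.059) and with the 2 controls without Y-linked counts left out (2.10, edgeR adjusted p = 0.094). *Il17b* was counted 5, 1, 1, 2 and 2 times in the controls and 5, 6, 7 and 26 times in the *Supt6*-KO mice, so that mouse 4 held most of them (log2 fold change 2.84, SE 0.60, edgeR adjusted p = 0.0012). *Il17d*, the most abundant of these ligands, fell from a control mean of 2.25 ± 0.282 CPM (SD, n = 5) to a knockout mean of 0.939 ± 0.425 CPM (SD, n = 4), or by a log2 fold change of -1.26 (SE 0.29, edgeR adjusted p = 0.0021). *Il25* did not pass (log2 fold change 1.14, SE 0.62, edgeR adjusted p = 0.19), and *Il12b*, the other subunit of IL-23, had too few counts to be tested. With library totals 1 of these ligands was called higher, and with either correction for length 0 were.

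Among the other receptors 1 of 4 rose and 2 fell (median log2 fold change -0.62). *Il17rd*, which encodes a receptor chain also known as SEF, was counted 234, 154, 143, 215 and 316 times in the controls and 24, 10, 16 and 26 times in the *Supt6*-KO mice. It stood out among the receptors by the size of its fall, a log2 fold change of -2.83 (SE 0.30, edgeR adjusted p = 7.7e-06), with no overlap. *Il23r*, the specific receptor chain for IL-23, had 0.108 ± 0.0395 CPM (SD, n = 5) and 0.389 ± 0.269 CPM (SD, n = 4), with overlapping groups (log2 fold change 1.85, SE 0.54, edgeR adjusted p = 0.0093), and was not called with library totals. Its partner *Il12rb1* was called lower with overlap (-1.34, SE 0.48, edgeR adjusted p = 0.025). That call was lost without control 1, 3 or 4 or *Supt6*-KO mouse 2 or 4, at log2 fold changes of -1.16, -1.26, -1.24, -1.21 and -1.20, and with both controls without Y-linked counts left out (-0.96, edgeR adjusted p = 0.15). *Il17rb*, the chain for IL-25, did not pass (0.10, SE 0.23, edgeR adjusted p = 0.71).

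Of 25 genes that relay the signal from the receptor to transcription and mRNA stability, 6 rose (24%) and 9 fell (36%), with a median log2 fold change of -0.23; of all genes 34.1% rose and 36.8% fell. Without *Supt6*-KO mouse 4, 14 of the 25 fell, beside 6392 of 16335 genes. The kinase genes *Tbk1* (0.82, SE 0.11, edgeR adjusted p = 5.1e-05) and *Map3k7*, which encodes TAK1 (0.66, SE 0.12, edgeR adjusted p = 0.00048), rose in all 4 *Supt6*-KO mice, and *Srsf1*, which encodes a splicing factor that promotes the decay of chemokine mRNA and is held back by Act1, rose with overlap (0.56, SE 0.20, edgeR adjusted p = 0.024). *Traf3*, an inhibitor of this pathway that binds the receptor, fell from a control mean of 18.4 ± 3.34 CPM (SD, n = 5) to a knockout mean of 5.53 ± 2.12 CPM (SD, n = 4), or by a log2 fold change of -1.73 (SE 0.26, edgeR adjusted p = 9.9e-05). *Rela* (-1.36, SE 0.23, edgeR adjusted p = 0.00025) and *Nfkb2* (-1.35, SE 0.22, edgeR adjusted p = 0.00017), which encode subunits of NF-κB, fell as well. The *Srsf1* call was lost without control 4 (0.53, edgeR adjusted p = 0.052) and with the controls without Y-linked counts left out (0.61, edgeR adjusted p = 0.057). With library totals 0 of the relay genes were higher and 17 lower, and with either correction for length 9 were higher and 7 lower.

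Within the IκB family, to which *Nfkbiz* belongs, the nuclear members *Nfkbid* and *Bcl3* were called higher too. *Nfkbid* went from a control mean of 1.02 ± 0.182 CPM (SD, n = 5) to a knockout mean of 3.73 ± 1.18 CPM (SD, n = 4), or by a log2 fold change of 1.87 (SE 0.25, edgeR adjusted p = 4.4e-05). *Bcl3* rose from 3.01 ± 1.28 to 8.91 ± 4.74 CPM (log2 fold change 1.57, SE 0.37, edgeR adjusted p = 0.0025). Neither gene overlapped between the groups, and the *Bcl3* call was lost with library totals (0.95, edgeR adjusted p = 0.057). Of the cytoplasmic members, *Nfkbia* fell (-0.57, SE 0.17, edgeR adjusted p = 0.0095), *Nfkbie* was called higher with overlap (0.45, SE 0.18, edgeR adjusted p = 0.043) and *Nfkbib* did not pass (0.25, SE 0.14, edgeR adjusted p = 0.13). The *Nfkbie* call was lost under 13 of 18 alternatives, 7 of them fits without 1 mouse, with an edgeR adjusted p of up to 0.24. Its sign turned with library totals (-0.25), and under the other alternatives that lost the call its log2 fold change was 0.35 to 0.47. With the 2 controls without Y-linked counts left out, *Nfkbia* narrowly missed the threshold (-0.46, edgeR adjusted p = 0.055). In all, 3 of the 5 other family members rose and 1 fell (median log2 fold change 0.45), against 1 higher and 2 lower with library totals.

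Among 11 relatives and partners of Regnase-1 and ABIN-1, 1 rose and 6 fell, with a median log2 fold change of -0.64. *Tnfaip3*, which encodes A20, fell from a control mean of 22.5 ± 4.802 CPM (SD, n = 5) to a knockout mean of 10.9 ± 1.28 CPM (SD, n = 4), or by a log2 fold change of -1.04 (SE 0.18, edgeR adjusted p = 0.00032). *Zc3h12c*, a paralogue of *Zc3h12a* (-1.01, SE 0.22, edgeR adjusted p = 0.0015), *Rc3h1*, which encodes the RNA-binding protein Roquin-1 (-0.64, SE 0.13, edgeR adjusted p = 0.00078), and *Otud4*, which encodes a deubiquitinase (-0.67, SE 0.11, edgeR adjusted p = 0.00017), were also below all controls. *Malt1*, which encodes a protease that cleaves Regnase-1 and A20, rose (0.46, SE 0.11, edgeR adjusted p = 0.0027). Several of these values moved with the corrections for the longest transcript and for counts per TPM. *Rc3h1* turned to 0.42 and 0.57 and was called higher with both (edgeR adjusted p = 0.021 and 0.0053). *Otud4* turned to 0.16 and 0.28 and was called higher with the second only (edgeR adjusted p = 0.14 and 0.019). *Zc3h12c* was not called with either (-0.25 and 0.03), and *Tnfaip3* was not called with the first (-0.36, edgeR adjusted p = 0.13). *Malt1* was at -0.23 with library totals (edgeR adjusted p = 0.16). The counts moved as well: 4 rose and 2 fell with the correction for the longest transcript, and 5 rose and 3 fell with that for counts per TPM.

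The genes that IL-17 is known to induce in keratinocytes had the largest median of the lists in the plot by list. Of 25 tested, 23 rose and 0 fell, with a median log2 fold change of 5.41, beside the 34.1% of all genes that were called higher. *Defb4*, which encodes a beta-defensin, was counted 0, 1, 1, 1 and 3 times in the controls and 339, 371, 1291 and 1995 times in the *Supt6*-KO mice. *Defb3*, another beta-defensin gene, was counted 0, 0, 1, 0 and 1 times and 512, 251, 345 and 116 times. The controls were at the floor for both, and the ratios of summed counts were 1313 (counting interval 603 to 3581) for *Defb4* and 1207 (333 to 9977) for *Defb3*. They belong to a multigene family, among whose copies RSEM can divide reads. *Cxcl2*, a neutrophil attractant, was counted 8, 8, 3, 5 and 1 times in the controls and 835, 1459, 1991 and 1490 times in the *Supt6*-KO mice, a log2 fold change of 8.82 (SE 0.42, edgeR adjusted p = 8.4e-08). *Lcn2*, which encodes the iron-binding protein lipocalin 2 (1.92, SE 0.20, edgeR adjusted p = 7.6e-06), *Ccl20*, which attracts CCR6-bearing cells (1.93, SE 0.48, edgeR adjusted p = 0.0035), and the gelatinase gene *Mmp9* (0.46, SE 0.18, edgeR adjusted p = 0.036) were at the lower end of the called genes, the last 2 with groups that overlapped. The *Mmp9* call was lost under 9 of 18 alternatives, 5 of them fits without 1 mouse (edgeR adjusted p of up to 0.24). Its log2 fold change was -0.25 with library totals and 0.25 to 0.55 under the others that lost the call. The *Ccl20* call was lost with the length from counts per TPM (0.66, edgeR adjusted p = 0.17). *Mmp3* and *Steap4*, named here after their values were seen, were the 2 that did not pass, with log2 fold changes of -0.03 and -0.22. Many of these genes are also induced by TNF and IL-1, so the list is not particular to IL-17.

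Markers of the cells that make or receive these signals moved between the groups too. In bulk skin, fewer cells of a type and less RNA per cell cannot be told apart. T-cell markers summed to 39.9, 47.0, 50.2, 40.1 and 35.9 CPM in the controls and 23.9, 19.2, 19.2 and 16.6 CPM in the *Supt6*-KO mice. Of 7 tested, 4 fell and 1 rose. *Cd3g*, the most abundant, went from 15.4 to 2.46 CPM (log2 fold change -2.65, edgeR adjusted p = 6.1e-06). Of all genes tested, 36.8% were called lower and 34.1% higher, the shares to set beside the counts of each marker list. The part of T cells in the rise of *Il17f* was not tested. The listed markers *Trac* and *Trdc* have no row in the count table and could not be read. Of the markers of type 17 lymphocytes, a list that includes *Il17a* and *Il23r*, 2 of 8 tested were higher and 2 lower.

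Neutrophil markers summed to 9.66, 7.50, 7.23, 8.28 and 4.66 CPM in the controls and 39.6, 36.9, 87.8 and 28.1 CPM in the *Supt6*-KO mice. Of 8 tested, 6 rose and 1 fell, and the most abundant was *Retnlg*, at 0.212 and 20.6 CPM. Macrophage markers summed to 155, 129, 97.9, 149 and 251 CPM in the controls and 267, 243, 269 and 310 CPM in the *Supt6*-KO mice, with 6 of 8 higher and 1 lower and *Mrc1* the most abundant. Langerhans and dendritic cell markers fell in 6 of 8 and rose in 1, and summed to 994, 1044, 990, 961 and 834 CPM in the controls against 346, 210, 179 and 96.9 CPM in the *Supt6*-KO mice. *Cd74*, which encodes the invariant chain of MHC class II, was the most abundant, at 442 and 50.3 CPM. Macrophages and dendritic cells can make IL-23. The summed macrophage markers overlapped between the groups, and 2 of 8 in place of 6 were called higher with library totals and with each correction for length.

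Basal keratinocyte markers summed to 9575, 9921, 9570, 10550 and 9523 CPM in the controls and 8058, 5411, 6519 and 13870 CPM in the *Supt6*-KO mice. Of 6 tested, 5 fell and 0 rose, and *Krt14*, the most abundant, did not pass (log2 fold change 0.66, edgeR adjusted p = 0.063). Suprabasal markers summed to 18500, 17460, 17590, 19680 and 18250 CPM in the controls and 36990, 35460, 33560 and 17360 CPM in the *Supt6*-KO mice, with 3 of 6 higher and 1 lower, and *Krt10* was the most abundant. *Supt6*-KO mouse 4 differed from the other 3 in both sums, as it did in *Il17ra*, *Il17re* and *Nfkbiz*, where it lay nearest to the controls. The other lists had no gene called higher. In them 4 of 6 fibroblast, 4 of 5 endothelial, 4 of 5 adipocyte, 5 of 5 skeletal muscle and 6 of 6 cartilage markers fell. The most abundant were *Col3a1*, *Pecam1*, *Fabp4*, *Acta1* and *Acan*, in that order. Of these, *Col3a1* (-0.31, edgeR adjusted p = 0.43) and *Fabp4* (0.46, edgeR adjusted p = 0.072) did not pass. The adipocyte markers summed to 311 ± 71.3 CPM (SD, n = 5) in the controls and 317 ± 61.7 CPM (SD, n = 4) in the *Supt6*-KO mice. The mean sums of the fibroblast, endothelial, skeletal muscle and cartilage markers were lower in the *Supt6*-KO mice. Skeletal muscle markers summed to 3226 ± 448.6 CPM (SD, n = 5) in the controls and 548.3 ± 81.7 CPM (SD, n = 4) in the *Supt6*-KO mice. Cartilage markers, which belong to the ear rather than to the skin of the back, summed to between 378 and 860 CPM in the controls and between 54.4 and 58.2 CPM in the *Supt6*-KO mice. No marker with a row in the table was at 0 in all 9 mice, and the part of the cell types in the changes of the members was not tested.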

How the data were processed

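The authors sequenced polyadenylated RNA of 9 skin samples, aligned paired reads to mm10 with Bowtie2 2.3.4.3 and deposited RSEM 1.3.1 estimated counts for each gene, without normalization between mice; about 9% are not whole. The authors also deposited TPM for 6 samples, which served only to compare levels and lengths. The annotation release is not given in the sources used here. Of the gene identifiers, 17917 were matched to RefSeq genes of GRCm38.p6, which gave symbols and promoters, and 26 were not. Gene coordinates, exons and the longest transcripts came from the GENCODE annotation of the mouse genome.

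Counts were rounded, genes with a sum under 10 were left out, and groups were compared in edgeR 4.0.16 (R 4.3.3) with TMM factors, the quasi-likelihood test and Benjamini-Hochberg adjustment over 16426 genes, without covariates; calls are at an adjusted p under 0.05. TMM factors were 1.198 to 1.315 in the controls and 0.674 to 0.910 in the *Supt6*-KO mice. The SE is the absolute log2 fold change over the square root of F. Ratios used counts plus 0.5. Intervals of count ratios and floors cover counting error only. Fits were tested on simulated data.

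The members and lists were chosen with earlier results of these data known. Named genes are *Supt6*, the members, all other ligands, receptors and IκB genes, the 3 highest and 3 lowest called genes of each other pathway list with at least 1 CPM, and the most abundant marker of each cell type; the result for 1 marker gene is not reported here. The alternatives comprised a length correction, library totals, DESeq2 1.42.0, upper-quartile scaling, 2 further filters on low counts, a replicate block and each mouse left out; those added after seeing the data were mice of matching Y-linked counts and lengths or levels from TPM. Replicate numbers come from the titles.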

Additional observations from a re-analysis of the deposited data

Results flagged for a closer look

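Within groups of 4 or 5 mice, 150 sets of values were examined for a mouse whose gap to its neighbour takes up most of the range of its group. Of these, 12 were past Dixon's 95% critical value, where chance gives 7.5. Among the members, *Il17c* had its only control counts in control 4 (0.0541 CPM) and its highest *Supt6*-KO value in mouse 2 (0.0960 CPM), which are 2 counts each, and the log2 ratio of *Il17c* to *Il17f* was 0.74 in control 4. *Il17rc* was lowest in control 5, at 47.8 CPM against a group median of 69.7.

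Control 5 also had the lowest *Nfkbib*, at 22.2 CPM, and the highest *Mrc1*, at 42.9 CPM against a median of 18.7. *Supt6*-KO mouse 4 had the highest *Il17b* (0.934 CPM, median 0.304) and the lowest *Il17rb* (2.52 CPM), *Tbk1* (42.9 CPM) and *Krt10* (7775 CPM, median 18890) of its group. *Il17a* in control 2 (0.110 CPM) and *Il17b* in control 1 (0.134 CPM) rest on 4 and 5 counts. The reported fits hold all 9 mice.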

How the results depend on the processing

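The directions and calls of *Supt6*, *Nfkbiz*, *Traf3ip2* and *Tnip1* held under all 18 alternatives, and those of *Il17f* and *Il23a* under the 17 that could test them, since a filter of 10 counts in every mouse removed these 2 ligands and left 1 member called higher. With the longest transcript as length, the log2 fold changes of *Il17ra* (0.11) and *Il17rc* (-0.02) and the log2 ratio of *Il17rc* to *Il17ra* (-0.13) reversed and that of *Il17re* to *Il17ra* moved to -0.88; the trend removed is one of length. With counts per TPM as length they were -0.32 for *Il17ra* and 0.46 for *Il17rc* to *Il17ra*, and *Zc3h12a* passed (0.53). With library totals *Il17rc* (-0.52) and *Zc3h12a* (-0.27) reversed. With a pseudocount of 0.1 the log2 ratio of *Il17c* to *Il17f* reversed to 0.80. With mice of matching Y-linked counts *Il17re* no longer passed (-0.74). The cause was not tested.

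Among all genes, library totals called 2771 higher. Counts of calls in the lists moved by over 1.5 times as follows. Library totals gave, for higher and lower calls, ligands 1 higher, receptors 0 higher, relay 0 and 17, IκB family 1 and 2, Regnase-1 and ABIN-1 list 0 higher, targets 2 lower, type 17 markers 0 and 5, macrophage markers 2 higher, Langerhans and dendritic cell markers 0 higher and suprabasal markers 3 lower. The filter of 10 counts in every mouse gave ligands 0 higher, receptors 0 and 1, targets 10 higher, type 17 markers 0 higher, neutrophil markers 2 and 0 and Langerhans and dendritic cell markers 0 higher. Correction for the longest transcript and for counts per TPM gave ligands 0 and 0 higher, the Regnase-1 and ABIN-1 list 4 and 5 higher and 2 and 3 lower, neutrophil markers 2 and 2 lower and macrophage markers 2 and 2 higher; the first also gave 2 fibroblast and 2 endothelial markers lower and 1 adipocyte marker higher. DESeq2 called 2 of the Regnase-1 and ABIN-1 list, 1 basal and 1 adipocyte marker higher. Mice of matching Y-linked counts gave ligands 1 higher, receptors 1 lower, IκB family 0 lower and type 17 markers 1 and 1.

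With a replicate block, 5251 genes were higher and 5800 lower, ligands and type 17 markers had 1 higher each, and no call of a member changed. *Il17a*, *Nfkbie* and *Srsf1* no longer passed (edgeR adjusted p = 0.059, 0.088 and 0.079). Their log2 fold changes were 2.77, 0.45 and 0.47 there, beside 2.75, 0.45 and 0.56 in the main fit. Same-numbered mice share only a number: their deviations correlated at -0.00856, 0.159, 0.142 and 0.0257, and 1 of 4 *Supt6*-KO mice correlated best with its own number.

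With each mouse left out, log2 fold changes ranged from -1.17 to -0.54 for *Il17re* and from 0.22 to 0.53 for *Zc3h12a*. The log2 ratios ranged from -0.29 to 0.04 for *Il17re* to *Il17ra*, from -1.39 to -0.79 for *Il17re* to *Il17rc* and from -0.88 to 0.17 for *Il17c* to *Il17f*. Counts ranged from 1 to 2 ligands higher, 1 to 2 receptors lower, 9 to 14 relay genes lower, 1 to 2 of the Regnase-1 and ABIN-1 list higher, 1 to 2 type 17 markers higher and 1 to 4 lower, and 0 to 1 basal and 0 to 1 adipocyte markers higher. From the authors' TPM, control levels relative to *Il17ra* were 5.20 for *Il17rc*, 0.666 for *Il17re*, 1.74 for *Traf3ip2*, 1.26 for *Nfkbiz*, 1.88 for *Zc3h12a* and 1.91 for *Tnip1*.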
